A study of Mus musculus with 64 samples.

Results

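Cultured mouse CD4 T cells were examined for the RNA of 8 amino acid transporter genes: Slc7a5, Slc3a2, Slc7a6, Slc7a1, Slc1a5, Slc1a4, Slc38a1 and Slc38a2. The genes were taken by symbol from the 23134 genes of the table, with earlier results of these data known. All 8 passed the filter on low counts that left 16140 genes. The question was how these genes answer a renewed T cell receptor signal, and whether loss of the RNA-binding proteins Roquin-1 and Roquin-2 (genes Rc3h1 and Rc3h2) or Regnase-1 (gene Zc3h12a) alters their RNA.

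CD4 T cells came from spleens of C57BL/6J mice of 4 genotypes, and every genotype, controls included, carried Cd4-Cre-ERt2, a tamoxifen-inducible Cre recombinase. WT cells carried Cd4-Cre-ERt2 alone, DKO cells also Rc3h1/2 fl/fl, KO cells also Zc3h12a fl/fl, and TKO cells both Rc3h1/2 fl/fl and Zc3h12a fl/fl. Floxed genes were deleted with 4′-OH-tamoxifen; whether WT cells received it is not stated in the labels, which also give no age or sex of the mice. All cells were activated with anti-CD3/28 in Th1 conditions for 40 h and kept for 2 days in medium with IL-2, and were then left untreated (0 h) or restimulated with anti-CD3/28 for 1, 2 or 4 h. There were 4 libraries for each of 16 groups (64 libraries), numbered here 1 to 4 by their place in the deposited lists. Nothing in the labels ties them to separate mice, and the p-values therefore rest on library spread that can be technical in part. In bulk RNA, fewer cells of a type and less RNA per cell cannot be told apart.

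The libraries held 5369873 to 11666589 recovered reads (median 7720297). Rc3h1 in DKO and TKO cells fell below every WT library at 4 h, with 583 to 790 normalized read counts against 1300 to 1480, but at 0 h overlapped (493 to 728 against 620 to 811), where it was called lower in DKO (log2 -0.32) and not in TKO cells (-0.17). Rc3h2 was not lower: it was called higher at 0 h in DKO cells (log2 0.37) and at every time in TKO cells (0.37 to 0.53). It was also called higher at 4 h in KO cells (0.45), where Rc3h2 was not floxed. Zc3h12a at 1 h was 495 to 829 in KO and TKO cells against 932 to 1230 in WT cells. At 0 h KO and WT cells overlapped. TKO cells at 0 h were called higher than WT cells (148 against 95.1, log2 0.60, adjusted p = 0.011, limma). Zc3h12a was called higher in DKO than WT cells at 0 h (298 to 357 counts, log2 1.78), 2 h (0.65) and 4 h (1.17). At 0 h every TKO library (106 to 197 counts) lay below every DKO library. Gene counts do not show which exons were deleted, no protein was measured, and the genotypes are given as labelled. T cell markers were high in every library (Cd2, 1030 to 4490 normalized counts), and the summed Th1 list lay at 1470 to 57700. Ifng was the most abundant gene of the Th1 list over all libraries, but at 0 h its group means were 54.0 to 248. The summed CD8 T cell list, led by Cd8b1, lay at 31.5 to 473 and the summed B cell list, led by Pax5, at 7.9 to 127. The myeloid list, led by Itgam, summed to 18.5 to 104. Lists for NK cells (led by Klrb1c), neutrophils (Mpo) and erythroid cells or platelets (Hba-a1) each summed to at most 40.3. Each WT and DKO group held 2 libraries with Xist RNA and 2 with Y-linked RNA, whereas each KO and TKO group held 1 and 3; with a term for this added after seeing the data, no call on a member named below changed.

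Activated T cells grow and divide, and they import amino acids for protein synthesis and to keep the kinase complex mTORC1 active. Slc3a2 encodes the heavy chain CD98, which brings partner light chains to the cell surface. Slc7a5 encodes the light chain LAT1, an exchanger of leucine and other large neutral amino acids, and Slc7a6 encodes another partner, which exchanges cationic for neutral amino acids. Slc7a1 encodes the uniporter CAT1 for arginine and lysine. Slc1a5 (ASCT2) and Slc1a4 (ASCT1) encode sodium-dependent exchangers of small neutral amino acids, glutamine among those carried by ASCT2, and Slc38a1 and Slc38a2 encode sodium-coupled carriers of glutamine, alanine and other neutral amino acids.

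In GRCm38 annotation, Slc7a5 lies at chr8:121881150-121907694 (minus strand), Slc3a2 at chr19:8706882-8723369 (minus), Slc7a6 at chr8:106168857-106198706 (plus) and Slc7a1 at chr5:148327410-148399904 (minus). Slc1a5 lies at chr7:16781340-16798274 (plus), Slc1a4 at chr11:20302180-20332713 (minus), Slc38a1 at chr15:96571418-96642913 (minus) and Slc38a2 at chr15:96687392-96699730 (minus). Slc7a5 overlaps Gm20388 on the opposite strand, a locus with 613% as many reads, but 0 of the 11 merged exons of Slc7a5 overlap an exon of Gm20388. Reads counted over exons would thus not be shared between Slc7a5 and Gm20388. The counter and its strand setting are not stated, nor whether reads in introns were counted. No other member overlaps an annotated gene. Among windows of 50 bases, 4.23% of those in Slc38a1 transcripts and 3.51% of those in Slc3a2 transcripts also occur in another gene, against at most 0.147% in the other members.

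Because the members rose together on restimulation (below), their promoter windows were searched for letters bound by factors that T cell activation and amino acid shortage engage. RefSeq (build GRCm38.p6) windows of 300 bases, 250 before and 50 after a start site, matched 5 members with 7 windows, namely Slc7a1, Slc7a6, Slc1a4, Slc38a2 and Slc3a2. The motifs were the E-box CACGTG, the composite ATF and C/EBP element TGATGNAA and the AP-1 site TGANTCA, on both strands. These occur in 7.15%, 3.97% and 7.81% of all 32851 windows. A window of Slc7a1 (chr5:148399855-148400154, minus strand) holds an AP-1 match that begins at base -123 from the start site. The window of Slc1a4 (chr11:20332664-20332963, minus strand) holds an ATF and C/EBP match, read on the other strand, that begins at base -4. The other 5 windows hold none of the 3. The windows with a match are shown with the matched letters in capitals.
Slc7a1: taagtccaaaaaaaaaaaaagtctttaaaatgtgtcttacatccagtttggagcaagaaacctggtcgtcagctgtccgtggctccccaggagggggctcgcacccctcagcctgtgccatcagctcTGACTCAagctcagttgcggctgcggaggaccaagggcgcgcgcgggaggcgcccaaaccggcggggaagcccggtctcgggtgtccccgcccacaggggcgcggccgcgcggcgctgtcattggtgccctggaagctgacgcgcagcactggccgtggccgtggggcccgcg
Slc1a4: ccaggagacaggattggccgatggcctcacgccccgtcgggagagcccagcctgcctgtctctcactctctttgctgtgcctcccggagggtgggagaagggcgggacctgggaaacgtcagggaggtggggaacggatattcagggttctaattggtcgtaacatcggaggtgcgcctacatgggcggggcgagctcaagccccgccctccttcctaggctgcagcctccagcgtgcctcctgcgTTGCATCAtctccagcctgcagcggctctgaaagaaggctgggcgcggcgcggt

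Values are read counts rescaled between libraries by the trimmed mean of M values (TMM). Changes are on the scale log2(value + 1) and, except for the low gene Slc1a4, close to log2 folds of the counts. A change was called at an adjusted p under 0.05 in limma, over all 16140 genes. Depth was no limit for 7 of the members, which had at least 164 reads in every library, whereas Slc1a4 had 7 to 239.

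Restimulation raised the whole group in WT cells. All 8 genes rose by 1 h, and 23 of the 24 member comparisons with 0 h were called, all higher. The share of all genes called higher was 18.7% at 1 h, 26.5% at 2 h and 24.6% at 4 h. The median member change was 1.63 at 1 h, 2.01 at 2 h and 1.78 at 4 h on the log2 scale, beside medians over all genes of -0.10, -0.16 and 0.01. The exception was Slc38a2 at 4 h.

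**Figure D1:**
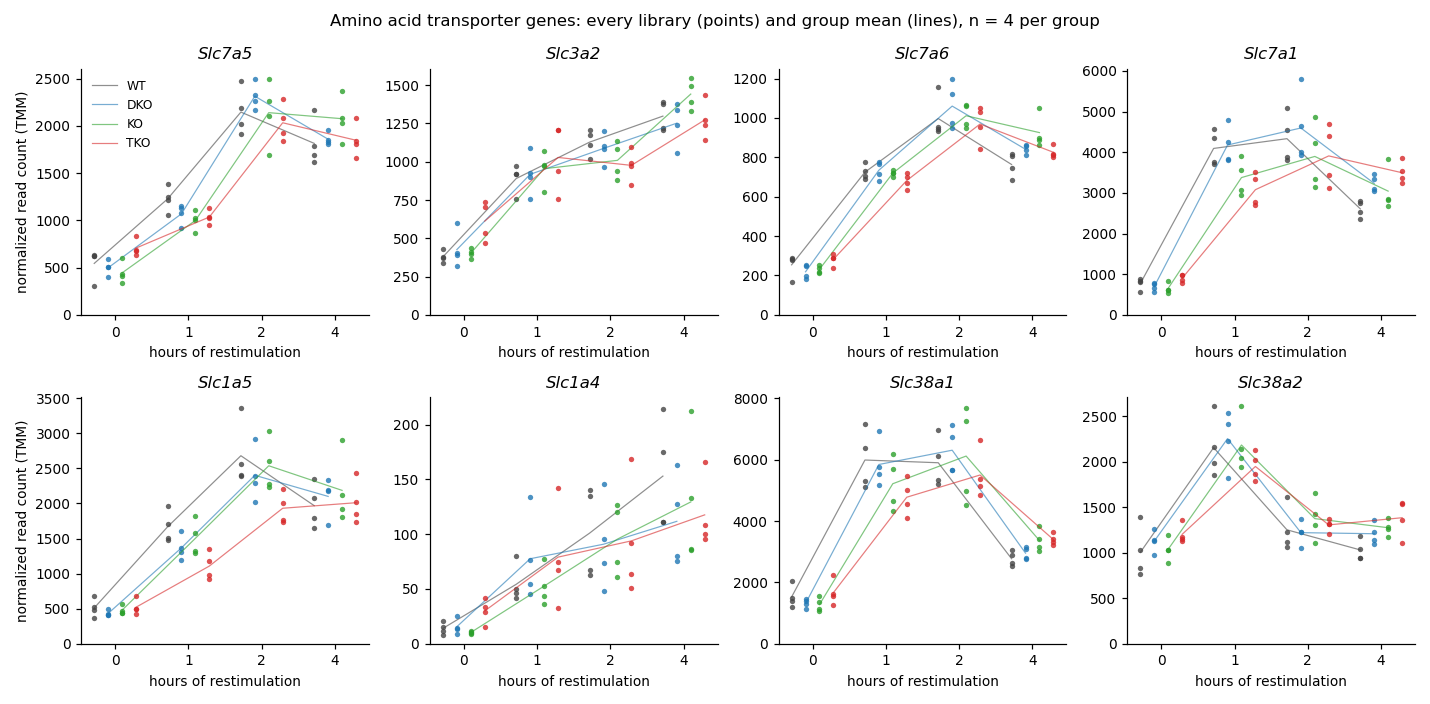
Normalized read counts (y axis, from 0, a scale per gene) of the 8 transporter genes at 0, 1, 2 and 4 h of restimulation (x axis). Points are libraries and lines join the means of 4 libraries; WT is grey, DKO blue, KO green and TKO red. Slc3a2 and Slc1a4 are highest at 4 h in WT cells, Slc7a5, Slc7a6 and Slc1a5 at 2 h, and Slc38a2 at 1 h.

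The heavy chain gene Slc3a2 read 378.7, 428.2, 370.1 and 337.8 counts in the 4 WT libraries at 0 h and 918.4, 753.9, 917.2 and 972.7 at 1 h. At 2 h it read 1110, 1172, 1210 and 1021, and at 4 h 1207, 1223, 1388 and 1374. Every restimulated library lay above every library at 0 h. The rise was 1.23 ± 0.14 (SE) at 1 h, 1.57 ± 0.14 at 2 h and 1.78 ± 0.14 at 4 h on the log2 scale, 3.43-fold at 4 h (limma, adjusted p = 9.9e-17).

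Its partner Slc7a5 read 629.5, 620.0, 619.4 and 308.3 counts at 0 h. It read 1387, 1056, 1213 and 1251 after 1 h and 2187, 1910, 2469 and 2015 after 2 h. Library 4 at 0 h stood well below the other 3, and no restimulated library overlapped those at 0 h. Slc7a5 rose by 1.22 ± 0.15 (SE, log2) at 1 h and by a further 0.81 ± 0.15 from 1 to 2 h, to 4.08-fold its level at 0 h. It then stayed at 1613 to 2169 counts at 4 h, a change from 2 h of -0.24 that was not called (95% interval -0.54 to 0.05).

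Slc7a6, the other light chain gene, rose from 167.9 to 286.7 counts at 0 h to 688.7 to 776.7 at 1 h and 932.0 to 1156 at 2 h. The rise was 2.00 ± 0.11 (SE, log2) at 2 h, or 3.99-fold. It fell to 683.9 to 819.0 counts at 4 h, a drop of -0.38 ± 0.11 from 2 h (limma, adjusted p = 0.0055) with no overlap between the libraries.

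Slc7a1, the arginine and lysine carrier gene, moved fastest. It read 885.1, 835.3, 802.9 and 552.4 counts at 0 h and 4563, 4341, 3770 and 3702 at 1 h, a 5.38-fold rise (log2 2.43 ± 0.15). At 2 h it overlapped 1 h (3814 to 5097 counts), and at 4 h it had fallen to 2357 to 2797, below every library at 2 h (log2 -0.73 ± 0.15, limma, adjusted p = 8.2e-05).

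Among the small neutral amino acid exchangers, Slc1a5 read 517.2, 485.5, 676.1 and 365.2 counts at 0 h and rose to 1484 to 1965 at 1 h and 2396 to 3362 at 2 h. It was 5.31-fold higher at 2 h (log2 2.41 ± 0.16) and fell by 0.44 on the log2 scale from 2 to 4 h (adjusted p = 0.028, limma). Slc1a4 was a low gene, with 8.36, 11.7, 20.9 and 15.3 counts at 0 h. It climbed to 41.5 to 79.8 counts at 1 h, 62.4 to 140 at 2 h and 111 to 215 at 4 h, with no overlap with 0 h. On the log2(value + 1) scale its change of 3.37 ± 0.39 at 4 h was larger than that of the other 7 members, and its SE was the widest.

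The system A genes Slc38a1 and Slc38a2 were transient. Slc38a1 read 1187 to 2033 counts at 0 h, 5107 to 7160 at 1 h and 5206 to 6955 at 2 h, and then dropped to 2536 to 3041 at 4 h. That drop was -1.08 ± 0.15 on the log2 scale (limma, adjusted p = 8.2e-08), and the libraries at 4 h still lay above those at 0 h. Slc38a2 read 1031, 765.1, 1394 and 827.1 counts at 0 h and 2614, 2163, 1991 and 1851 at 1 h, a 2.19-fold rise. It was back to 1058 to 1614 by 2 h, overlapping 0 h, a fall of -0.79 ± 0.14 from 1 h. Its remaining difference from 0 h at 2 h (0.34 ± 0.14, adjusted p = 0.035, limma) was lost when any of 5 libraries was left out, among them library 3 at 2 h (0.21, adjusted p = 0.24). At 4 h the difference was 0.07 (95% interval -0.21 to 0.35).

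Between 1 and 2 h in WT cells, 4 members were called higher and 1 lower, beside 16.6% and 18.9% of all genes. Between 2 and 4 h, 0 were called higher and 4 lower, beside 9.24% and 19.1% of all genes. Slc38a2 fell from 1 to 2 h in each genotype, by 0.88 in DKO, 0.67 in KO and 0.57 in TKO cells on the log2 scale, a step at which 17.8%, 17.7% and 14.5% of all genes were called lower. Slc38a1 fell from 2 to 4 h in each genotype, by 1.09 in DKO, 0.83 in KO and 0.69 in TKO cells, beside 18.3%, 14.5% and 12.9% of all genes called lower.

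The counts were also divided by the length of each gene's merged exons, to compare genes. At 0 h in WT cells Slc7a5 stood at 147 ± 42.5 counts per kilobase (SD, n = 4), Slc1a5 at 122 ± 30.7, Slc38a2 at 114 ± 32.1 and Slc3a2 at 107 ± 10.6, and these 4 overlapped. Slc38a1 followed at 88.5 ± 21.0, Slc7a1 at 66.7 ± 12.9 and Slc7a6 at 55.6 ± 12.6, each overlapping the gene before it in that order, and Slc1a4 at 3.58 ± 1.37 lay below all the others. At 2 h the order was Slc1a5 (642 ± 110) and Slc7a5 (579 ± 65.8), which overlapped, then Slc7a1 (376 ± 52.8), Slc38a1 (342 ± 47.0) and Slc3a2 (320 ± 23.3), each overlapping the next. Slc7a6 (218 ± 23.3), Slc38a2 (142 ± 28.4) and Slc1a4 (25.7 ± 10.7) came last, each apart from its neighbours. At 4 h Slc7a5 (489 ± 66.7) and Slc1a5 (472 ± 73.6) led and overlapped, and Slc3a2 (368 ± 27.3) came next and apart from both. Merged exons count every annotated isoform, and they run from 3529 bases in Slc3a2 to 17236 in Slc38a1. Which isoforms these cells use was not tested.

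The knockout cells answered restimulation in the same direction. All 8 members were called higher at 1 h in DKO, KO and TKO cells, beside 19.3%, 18.9% and 13.1% of all genes. Slc1a4 in TKO cells overlapped 0 h at 1 h (1.27 ± 0.39), and its call was lost with limma voom (adjusted p = 0.057), with only the groups compared (0.066) and without TKO library 4 at 0 h (1.00, adjusted p = 0.075) or library 3 at 1 h (0.93, adjusted p = 0.1). At 2 h 7 members were called higher in DKO cells, 8 in KO cells and 7 in TKO cells, beside 29.6%, 30.1% and 24.4% of all genes. At 4 h 7 members were called higher in each of them, beside 28.2%, 33% and 27.3% of all genes. The 5 comparisons that were not called were all of Slc38a2, at 2 and 4 h in DKO and TKO cells and at 4 h in KO cells, with changes of 0.10 to 0.30. The call on Slc38a2 at 2 h in KO cells (0.40 ± 0.14) was lost without KO library 1 at 0 h or KO library 3 or 4 at 2 h. In DKO cells Slc7a1 rose by 2.59 and Slc1a4 by 2.21 at 1 h, and in KO cells by 2.38 and 2.20.

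**Figure D2:**
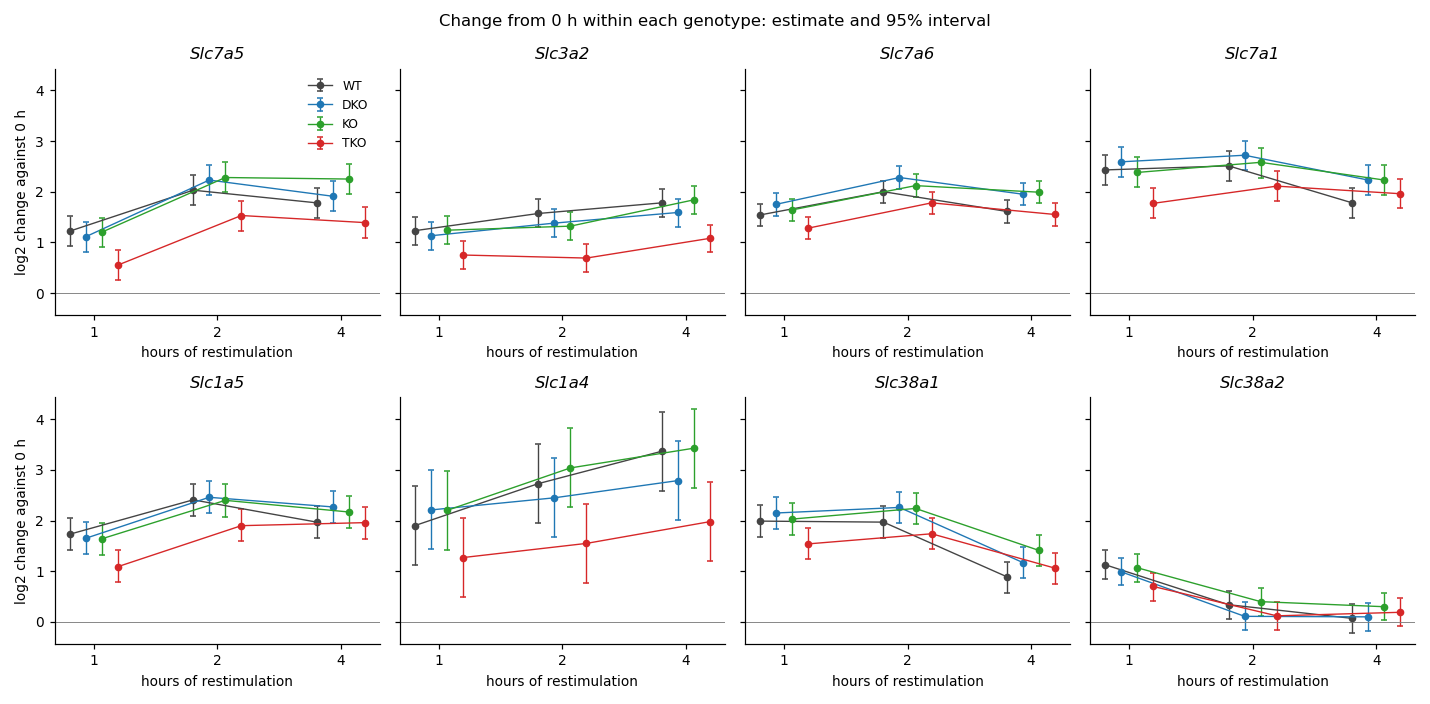
Change from 0 h (y axis, log2) of each transporter gene at 1, 2 and 4 h (x axis) within each genotype, as estimate and 95% interval from limma. All points at 1 h lie above 0, and the TKO estimates (red) at 1 h are the lowest of the 4 genotypes in each panel.

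The rise at 1 h was smaller in TKO than in WT cells for each member by its estimate. Slc7a5 rose by 0.55 ± 0.15 in TKO cells against 1.22 ± 0.15 in WT cells, Slc1a5 by 1.09 ± 0.16 against 1.73 ± 0.16 and Slc7a1 by 1.77 ± 0.15 against 2.43 ± 0.15. WT library 4 at 0 h, which enters each WT rise, was the lowest of its group for Slc7a5, Slc1a5, Slc7a1, Slc3a2, Slc7a6 and Slc38a1. It was not the lowest for Slc1a4 or Slc38a2. Over the alternatives run, the Slc7a5 rise at 1 h was 0.97 to 1.37 in WT cells and 0.40 to 0.64 in TKO cells. The difference in response was below 0 for 8 of 8 members at 1 h (-0.67 to -0.26, median -0.56, beside -0.02 over all genes). None of these was called, with adjusted p of 0.14 to 0.89 and 6 with an unadjusted p under 0.05, beside 0.781% of all genes called (limma). On the authors' own scaling, with no TMM factors, 7 of the 8 were called lower at 1 h, with a median of -0.85, but the median over all genes was then -0.31. All 8 share the libraries of 4 groups, so they are not 8 separate observations.

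At 2 and 4 h the difference in response was called for Slc3a2 and no other member. On the authors' own scaling 3 members were called lower in TKO cells at 2 h (Slc3a2, Slc7a5 and Slc1a5) and 3 at 4 h (Slc3a2, Slc7a5 and Slc1a4), and Slc38a2 was called lower in DKO cells at 2 h (-0.62). Slc3a2 in TKO cells read 532.6, 703.0, 739.8 and 471.7 counts at 0 h and 1206, 942.5, 1206 and 757.7 at 1 h. At 2 h it read 990.1, 850.5, 968.9 and 1096, and at 4 h 1141, 1240, 1438 and 1271. The TKO libraries thus started above all WT libraries and overlapped them from 1 h on. The rise was 0.69 ± 0.14 at 2 h in TKO cells against 1.57 ± 0.14 in WT cells, a difference of -0.88 ± 0.20 (adjusted p = 0.0028, limma), beside 4.58% of all genes called. At 4 h the difference was -0.70 ± 0.20 (adjusted p = 0.017), beside 6.61% of all genes called, and it was lost without TKO library 2 (-0.63, adjusted p = 0.054) or 3 (-0.60, adjusted p = 0.062) at 0 h. The difference at 2 h was called under every alternative run. DKO and KO cells had 0 called differences in response in 48 member comparisons, beside 0.105%, 0.347% and 0.818% of all genes at 1, 2 and 4 h in DKO cells and 0.0248%, 0.204% and 2.19% in KO cells. Of these, 6 had an unadjusted p under 0.05 (limma). Without WT library 4 at 0 h, 3 of these were called, namely Slc7a6 at 4 h in DKO cells and Slc7a6 and Slc7a5 at 4 h in KO cells.

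Against WT cells at the same time, DKO cells (floxed Rc3h1/2) had 0 of 32 member comparisons called. Of all genes, 7.61% were called at 0 h, 8.2% at 1 h, 9.47% at 2 h and 5.38% at 4 h. One of the 32 had an unadjusted p under 0.05 (limma). Differences ran from -0.47 to 0.43, and the 95% intervals together spanned -1.25 to 1.21. Both ends came from the low gene Slc1a4. On the authors' own scaling 2 were called, Slc3a2 (0.41) and Slc38a2 (0.48) at 0 h, both higher in DKO cells. Without WT library 4 at 0 h, 1 was called, Slc7a6 at 0 h.

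KO cells (floxed Zc3h12a) had 1 of 32 called, beside 1.34%, 2.16%, 5.93% and 33.1% of all genes at 0, 1, 2 and 4 h. This was Slc7a6 at 4 h, with 1051, 861.2, 888.9 and 900.2 counts against 683.9, 743.8, 819.0 and 807.0 in WT cells. The KO libraries all lay above the WT libraries (0.28 ± 0.11, adjusted p = 0.046, limma). At this time the median over all genes also differed by 0.22, and on the authors' own scaling the Slc7a6 difference was -0.00. Leaving out any of 5 libraries, among them KO library 4 at 4 h (0.16, adjusted p = 0.39), ended the call. Summed CD8 T cell markers at 4 h were 128 to 473 in KO against 45.2 to 161 in WT libraries. Cd8b1 was called higher by 1.60 on the log2 scale, but the other of the 2 tested CD8 genes was not called. Summed myeloid markers were 18.7 to 33.0 against 46.6 to 59.2. The part of these markers in the Slc7a6 difference was not tested. Without WT library 4 at 0 h Slc7a5 at 0 h was called as well, and without WT library 4 at 4 h Slc38a2 at 4 h. DKO and KO cells did not differ in a called way in any of 32 comparisons, beside 1.19%, 1.32%, 2.79% and 3.05% of all genes at 0, 1, 2 and 4 h, and 1 of the 32 had an unadjusted p under 0.05 (limma).

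TKO cells (floxed Rc3h1/2 and Zc3h12a) had 8 of 32 called against WT cells, 5 higher and 3 lower. Of all genes, 37.2% were called at 0 h, 31.5% at 1 h, 36.5% at 2 h and 43.7% at 4 h, so over the 4 times calls on members were not more frequent than calls on all genes. At 0 h 3 of 8 members were called higher, at 1 h 2 lower, at 2 h 1 lower and at 4 h 2 higher.

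**Figure D3:**
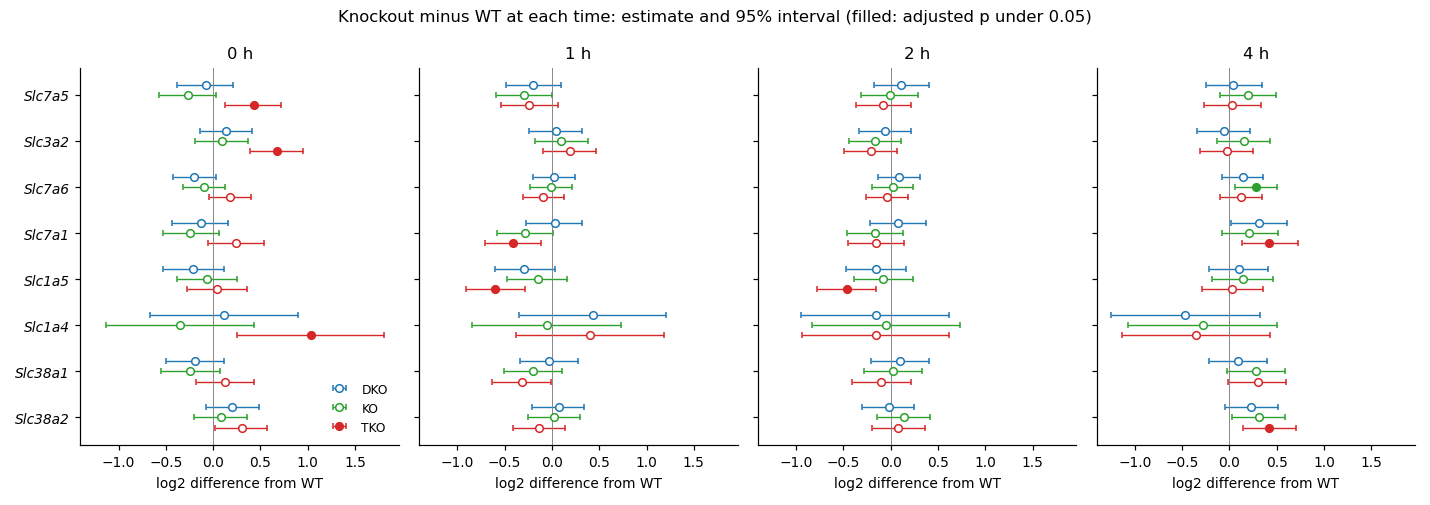
Difference of each knockout from WT (x axis, log2) for the 8 genes (y axis) at 0, 1, 2 and 4 h, as estimate and 95% interval from limma. Filled points have an adjusted p under 0.05: 8 in TKO cells (red), 1 in KO cells (green) and 0 in DKO cells (blue).

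At 0 h, the heavy chain gene Slc3a2 had a mean of 611.8 ± 130 counts (SD, n = 4) in TKO cells against 378.7 ± 37.4 in WT cells. Every TKO library (471.7 to 739.8) lay above every WT library (337.8 to 428.2). The difference was 0.67 ± 0.14 (SE, log2), or 1.59-fold, with an adjusted p of 0.00015 (limma), and it was called under every alternative run. In the authors' deposited table the log2 fold change was 0.586, with a false discovery rate of 0.028. Against KO cells at 0 h (365.1 to 436.9 counts) Slc3a2 was also higher, by 0.58 ± 0.14, called under every alternative. Against DKO cells (316.5 to 598.9) it was higher by 0.54 ± 0.14, with overlapping libraries, and the call was lost on the authors' own scaling (0.32, adjusted p = 0.12).

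Slc7a5 read 676.7, 682.6, 836.1 and 631.1 counts at 0 h in TKO cells, all above the WT libraries by a narrow margin (WT highest 629.5). The difference of 0.43 ± 0.15 (adjusted p = 0.019, limma) rested on the low WT library 4: without it, the difference was 0.17 and the adjusted p 0.34. The call was also lost without TKO library 3 (0.34, adjusted p = 0.087). With median-of-ratios factors (0.35, adjusted p = 0.056), upper-quartile factors (0.28, 0.12) or only the groups compared (0.43, 0.18) it was lost as well (limma). Against KO cells (333.2 to 599.5 counts) the difference was 0.69 ± 0.15 (adjusted p = 0.00075, limma) with no overlap, called under every alternative run. Against DKO cells (396.4 to 588.3) it was 0.51 ± 0.15 (adjusted p = 0.015, limma), and it was lost on the authors' own scaling (0.29, adjusted p = 0.19) and without DKO library 1 (0.41, adjusted p = 0.073) or TKO library 3 (0.43, adjusted p = 0.066).

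Slc1a4 at 0 h read 41.9, 29.1, 33.3 and 15.6 counts in TKO cells against 8.36, 11.7, 20.9 and 15.3 in WT cells, and the groups overlapped. Its difference was 1.03 ± 0.39 (adjusted p = 0.032, limma), and the call was lost in 10 of 19 alternatives. Among these were a pseudocount of 5 (0.86, adjusted p = 0.053) and leaving out WT library 1 (0.82, adjusted p = 0.12). Against KO cells (9.02 to 11.4 counts) it was 1.38 ± 0.39 with no overlap, a call lost with limma voom on the recovered reads (adjusted p = 0.13). Slc7a1 and Slc7a6 were each called in 1 further comparison at 0 h, Slc7a1 against KO cells (0.48 ± 0.15) and Slc7a6 against DKO cells (0.37 ± 0.11), both with overlapping libraries and both lost on the authors' own scaling. In all, 3 of 8 members were called higher than in DKO cells and 4 of 8 higher than in KO cells at 0 h, beside 14.8% and 20.2% of all genes called in either direction. From 1 h on, 0 of 24 were called in each of these comparisons, beside 4.16%, 6.8% and 12.4% of all genes against DKO cells and 9.66%, 11.6% and 2.59% against KO cells. Summed B cell markers at 0 h were 49.2 to 95.2 counts in TKO against 20.9 to 57.0 in WT libraries, and summed CD8 T cell markers 91.7 to 144 against 31.5 to 151. Their part in these differences was not tested.

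Whether the TKO difference exceeds the sum of the DKO and KO differences was tested as well, and 0 of 32 member comparisons were called (limma), beside 0.83%, 0.254%, 0.155% and 0.167% of all genes at 0, 1, 2 and 4 h. At 0 h 6 of 8 members had an unadjusted p under 0.05, all with an excess in TKO cells, and the median excess was 0.52, beside 0.05 over all genes. Slc7a5 was nearest to a call, with an excess of 0.78 ± 0.21 (adjusted p = 0.054). Without WT library 4 at 0 h, Slc7a5, Slc7a6 and Slc7a1 were called. On the authors' own scaling the median excess was 0.04 and 3 of 8 members lay below 0.

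Slc1a5 was lower in TKO than in WT cells at 1 and 2 h. At 1 h it read 928.9, 981.7, 1177 and 1344 counts in TKO cells against 1965, 1713, 1484 and 1509 in WT cells, with no overlap. The difference was -0.60 ± 0.16 (adjusted p = 0.0031, limma), or 0.66-fold, and it was called under every alternative run. At 2 h it read 1769, 2205, 1742 and 2010 against 2396, 2559, 3362 and 2407, again with no overlap (-0.46 ± 0.16, adjusted p = 0.017). The call at 2 h was lost without WT library 3 (-0.35, adjusted p = 0.091) or TKO library 3 (-0.42, adjusted p = 0.058). At 0 and 4 h the Slc1a5 differences were 0.04 and 0.03. Summed B cell markers at 1 h were 34.3 to 76.6 counts in TKO against 19.8 to 34.7 in WT libraries, and their part was not tested.

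Slc7a1 was lower in TKO cells at 1 h and higher at 4 h. At 1 h it read 2768, 2696, 3512 and 3340 counts against 4563, 4341, 3770 and 3702 in WT cells, with no overlap (-0.41 ± 0.15, adjusted p = 0.025, limma). Leaving out any of 4 libraries, such as TKO library 2 (-0.35, adjusted p = 0.091), ended that call. At 4 h it read 3861, 3357, 3535 and 3232 against 2357, 2537, 2740 and 2797, also with no overlap (0.42 ± 0.15, adjusted p = 0.016). Slc38a2 at 4 h read 1103, 1355, 1546 and 1535 counts against 947.4, 1044, 942.8 and 1189, with overlap (0.42 ± 0.14, adjusted p = 0.012). At 4 h the median over all genes differed by 0.20, and on the authors' own scaling both differences were 0.17 and neither was called. The call on Slc7a1 at 4 h was also lost without WT library 1 (0.38, adjusted p = 0.056) or TKO library 1 (0.37, adjusted p = 0.055). Summed CD8 T cell markers at 4 h were 195 to 277 in TKO against 45.2 to 161 in WT libraries, with no overlap. Cd8b1 was called higher by 1.62 on the log2 scale, but the other of the 2 tested CD8 genes was not called. Summed B cell markers were 17.4 to 25.5 against 32.3 to 45.3, again with no overlap. The B cell genes did not move together: of 4 tested, 1 was called lower and 1 higher (Cd79b, log2 2.40). Summed myeloid markers were 18.5 to 29.0 against 46.6 to 59.2, also with no overlap, and of 3 tested genes 2 were called lower and 0 higher. The part of these markers in the differences at 4 h was not tested.

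Ratios between members within a library do not depend on how libraries are scaled. Both ratios were chosen after the data were seen, and 14 comparisons of them were made. Slc38a1 counts per Slc38a2 count in WT cells were 1.46, 1.80, 1.46 and 1.44 at 0 h and 2.74, 2.96, 2.66 and 2.76 at 1 h. At 2 h they were 5.04, 4.25, 4.31 and 5.50 and at 4 h 2.68, 2.52, 3.23 and 2.42. The ratio at each restimulated time lay above 0 h in every library (exact permutation test, 2-sided p = 0.0286, the smallest that 4 against 4 can give, adjusted 0.1333). Slc7a5 counts per Slc3a2 count in WT cells averaged 1.42 ± 0.356 (SD, n = 4) at 0 h, 1.38 ± 0.0992 at 1 h, 1.90 ± 0.185 at 2 h and 1.40 ± 0.128 at 4 h. In TKO cells it averaged 1.18 ± 0.163, 1.04 ± 0.225, 2.09 ± 0.172 and 1.45 ± 0.0268, and none of the 7 comparisons of this ratio reached an exact p under 0.05.

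**Figure D4:**
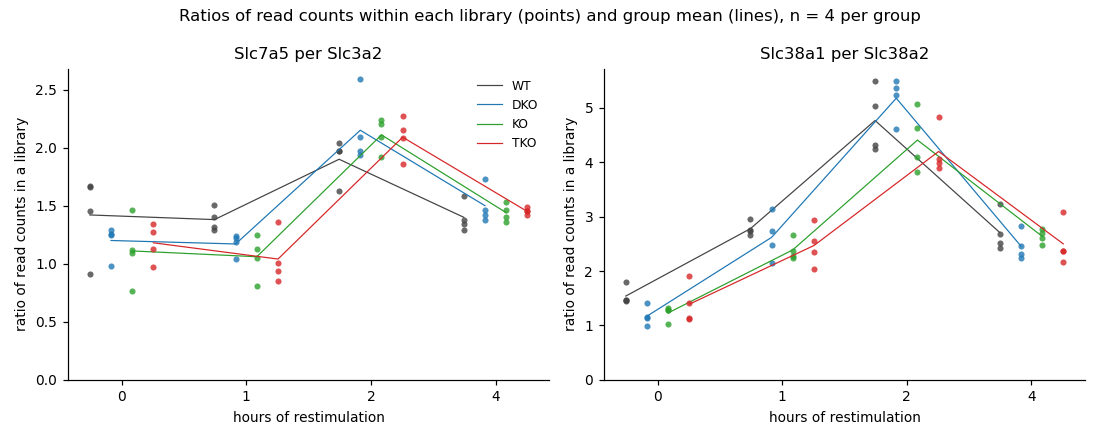
Ratio of read counts within each library (y axis, from 0) at 0, 1, 2 and 4 h (x axis), for Slc7a5 per Slc3a2 and Slc38a1 per Slc38a2. Points are libraries and lines join group means (n = 4); Slc38a1 per Slc38a2 peaks at 2 h, at a mean of 4.77 in WT and 4.20 in TKO cells.

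Across the 16 group means on the log2 scale, Pearson's r between pairs of members ran from 0.10 to 0.98, with a median of 0.89 over 28 pairs. The lowest was Slc7a5 with Slc38a2, and pairs without Slc38a2 ran from 0.73 upward. Among all genes, those most like Slc7a5 were Polr3d (r = 0.995), Slc7a6os (0.994) and Nol9 (0.994). Those most like Slc3a2 were Ltv1 (0.984), its fellow member Slc1a4 (0.983) and Fubp1 (0.979). The points share the same libraries and the time course, so these values are a description.

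Other genes of amino acid handling were counted by list. Of 22 tested genes for other amino acid transporters of the cell surface, 7 were called higher and 1 lower at 4 h in WT cells, beside 24.6% and 27.1% of all genes. Slc6a9, a glycine transporter, rose from 4.59 to 43.5 counts (mean), Slc7a11, the cystine exchanger, from 6.98 ± 4.50 to 23.2 ± 16.5 (SD, n = 4; 15.1 at 4 h without library 4), and Slc43a2, a carrier of large neutral amino acids, fell from 324 to 56.2. At 0 h in TKO against WT cells 2 were called higher and 10 lower, beside 19.3% and 18% of all genes, with a median of -1.13. Slc6a19, a low gene, changed most there, from 13.9 counts (libraries at 8.36 to 18.3) to 1.92 (1.11 without TKO library 2). How many of the other genes called lower were as low was not tested. At 1 h 2 were called higher and 1 lower, beside 15.8% and 15.7% of all genes. Slc7a3, a cationic carrier like Slc7a1, changed most, with 18.8 ± 1.74 counts in TKO against 3.06 ± 0.973 in WT cells at 1 h (SD, n = 4; log2 2.31 ± 0.46, SE).

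Of 9 tested lysosomal transporters, 2 were called higher and 4 lower at 4 h in WT cells, beside 24.6% and 27.1% of all genes. Slc29a3, a nucleoside carrier, rose from 192 to 1120 counts, while Ctns and Slc36a1 fell by 2.45 and 1.56 on the log2 scale. At 2 h in TKO cells 6 were called higher than in WT cells and 0 lower, beside 20% and 16.4% of all genes, with Slc15a3, a peptide and histidine carrier, at 221 ± 168 against 15.6 ± 9.35 counts (SD, n = 4). Without TKO library 2 its mean was 138.

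Of 24 tested genes of amino acid metabolism, 12 were called higher and 3 lower at 4 h in WT cells, beside 24.6% and 27.1% of all genes. Bcat1, a branched-chain aminotransferase, rose from 126 to 2440 counts, Shmt1 from 170 to 1250 and Asns, asparagine synthetase, from 19.2 to 131. At 0 h in TKO cells 12 were called higher than in WT cells and 1 lower, beside 19.3% and 18% of all genes. Asns stood there at 129 ± 14.6 against 19.2 ± 10.2 counts (SD, n = 4, log2 2.80 ± 0.34, SE). It was also called higher than in WT cells at 0 h in DKO (55.1 ± 34.8, log2 1.36) and KO cells (42.8 ± 5.34, log2 1.23).

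Of 36 tested genes of mTORC1 and its amino acid sensing, 14 were called higher and 15 lower at 4 h in WT cells, beside 24.6% and 27.1% of all genes, with Wdr59 up by 2.28, Fnip2 up by 1.73 and Gatsl3 down by 2.67 (log2). At 0 h in TKO cells 6 were called higher than in WT cells and 0 lower, beside 19.3% and 18% of all genes. Rragd, a Rag GTPase, changed most there (281 against 94.5 counts). Rragd was also called higher at 0 h in DKO (187 counts, log2 0.99) and KO cells (180 counts, log2 0.94). Of 14 tested regulators of transporter genes and transporter turnover, 2 were called higher and 8 lower at 4 h in WT cells, again beside 24.6% and 27.1%. Mxd4, a Max partner that opposes Myc, fell by 4.22, Txnip by 4.16 and Mycn by 2.63 on the log2 scale. At 0 h in TKO cells 5 were called higher than in WT cells and 1 lower, beside 19.3% and 18% of all genes, with Arrdc4 higher by 2.08.

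The transcription factor genes Myc and Atf4, known activators of transporter genes, were picked from that list after their values were seen. In WT cells Myc rose from 1470 ± 260 to 9940 ± 1950 counts at 1 h and 11800 ± 1260 at 2 h and stood at 5290 ± 434 at 4 h (SD, n = 4). Atf4 rose from 316 ± 73.7 to 645 ± 137, 805 ± 248 and 710 ± 198. At 0 h Atf4 was higher in TKO than in WT cells (481 ± 67.1 counts, log2 0.62 ± 0.19 SE, adjusted p = 0.0078, limma), while Myc differed by 0.10 (adjusted p = 0.69). At 1 h Myc differed by -0.14 and Atf4 by 0.18, and neither was called. Myc was called higher in KO than WT cells at 4 h (0.46, adjusted p = 0.044, limma), beside 33.1% of all genes called.

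The authors' deposited table calls 22 of the 23 member changes that were called here on restimulation in WT cells, 65 of the 67 in knockout cells and 4 of the 8 between TKO and WT cells, all in the same direction. It calls 3 of the 4 between TKO and KO cells, 0 of the 3 between TKO and DKO cells and 0 of the 1 between KO and WT cells.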

How the data were processed

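RNA-seq of 64 libraries was analysed. The deposited table lists, per group, 4 normalized read counts, scaled by the authors between libraries, per the file headers. Its log2 fold changes and FDR (adjusted p-value) columns are the authors' own comparisons, per the file headers. The build was GRCm38, per the submitters' processing notes; aligner, counter and strand setting: not given in the sources used here.

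Low values of each library were whole multiples of 1 read (100% within 0.1 read), which gave 5369873 to 11666589 reads per library. Values were rescaled by TMM (trims of 30 and 5 percent) and tested as log2(value + 1) in limma 3.58.1 (R 4.3.3; trend, robust, 16 group means, 48 residual df), with Benjamini-Hochberg adjustment over 16140 genes that had at least 10 reads at the median depth in at least 4 libraries and at least 15 reads in all. The median residual SD was 0.329 (log2). The deposited columns hold normalized values, so no count model was the main test. Tables and ratios used Python 3.11.15, pandas 2.3.3 and scipy 1.17.1. Promoters came from RefSeq and gene positions from GENCODE.

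The members and lists (other cell surface amino acid transporters, lysosomal transporters, mTORC1 and amino acid sensing, amino acid metabolism, regulators, and markers of CD4 T, Th1, CD8 T, B, myeloid, NK, neutrophil and erythroid or platelet cells) were chosen with earlier results of these data known. Named are all 8 members; of each list described, the 3 called genes with the largest change at 4 h in WT cells and the 1 called gene with the largest change in each knockout comparison described for that list; the most abundant gene of each marker list; the 3 genes most like Slc7a5 and Slc3a2; and Rc3h1, Rc3h2 and Zc3h12a. Steps between consecutive times, ratios and the term for sex were added after seeing the data.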

Additional observations from a re-analysis of the deposited data

Results flagged for a closer look

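Among 128 sets of 4 libraries (8 genes in 16 groups), 6 held a library far from the other 3 by Dixon's criterion, which chance alone meets in about 5% of sets. Slc7a5 had a low library in WT cells at 0 h (308.3 normalized counts), and Slc7a6 had its low library in the same group (167.9). In WT cells at 2 h, Slc1a5 (3362) and Slc7a6 (1156) each had 1 high library. Slc1a5 had a high library in DKO cells at 0 h (489.3), and Slc7a1 had one in KO cells at 4 h (3824). The change of Slc3a2 on restimulation differed between TKO and WT cells, by -0.88 at 2 h and -0.70 at 4 h on the log2 scale.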

How the results depend on the processing

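Over the alternatives summarized here for single members, 589 values kept the direction and the call, 58 lost the call and 3 turned the direction. These counts do not include every lost call. The turned values were Slc38a2 at 4 h in WT cells (-0.05 to 0.24 with 1 library left out) and Slc7a6 in KO against WT cells at 4 h (-0.00 on the deposited scaling, -0.01 with upper-quartile factors). Calls of DKO against WT cells numbered 2 on the deposited scaling, 1 with only the groups compared and 0 to 1 with 1 library left out. For KO against WT cells they were 0 on the deposited scaling, 0 with median-of-ratios factors, 0 with upper-quartile factors, 0 with no filter, 0 with neither trend nor robust, 3 with only the groups compared and 0 to 2 with 1 library left out. TKO against WT cells gave 4 with median-of-ratios and 5 with upper-quartile factors. TKO against DKO cells gave 1 with upper-quartile factors, 0 with only the groups compared and 1 to 4 with 1 library left out. Non-additivity gave 1 with median-of-ratios factors and 0 to 3 with 1 library left out, and the difference in response gave 14 on the deposited scaling and 1 to 5. Why these counts moved was not tested. All genes called in KO against WT cells at 4 h were 65.5% higher, against 20% on the deposited scaling, and in TKO against WT cells 62.6% against 35.6%.

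The order in the lists does not pair libraries: same-place deviations had a median r of 0.00733 over 480 pairs, and 19 of 64 libraries were closest to their own place. This covers list order alone. Within each genotype the numbers of libraries with Xist and with Y-linked RNA were the same at every time. Whether libraries of different times came from the same mice was not tested, and the tests treat all libraries as separate. With place as a replicate block, non-additivity gave 1 call. The planned count-model fits on recovered reads were not run. Depth limits Slc1a4, with 7 to 239 reads per library.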
